A study of Mus musculus with 6 samples.

Results

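The nuclear genes of respiratory complex I were examined in kidneys of Hspa8 knockout (KO) and wild-type (WT) mice. They were taken by symbol, as the rows that begin with Ndufa, Ndufb, Ndufc, Ndufs, Ndufv or Ndufaf and a number, together with Ndufab1. This gave 49 genes of the 34714 in the table, 41 with the symbol of a subunit and 8 Ndufaf assembly factors. No measured value entered the choice. All 49 reached a mean of 1 FPKM (fragments per kilobase of transcript, relative to all mapped fragments), the level at which a gene was tested, as did 12174 genes in all. The genes lie on 17 autosomes and, for Ndufa1 and Ndufb11, on the X chromosome.

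RNA of kidney was sequenced from 3 KO and 3 WT samples of mice that were 8 weeks old, on normal chow. The KO label names only an Hspa8 knockout, while the animals listed for the study include Hspa8flox/flox mice and Cdh16-Cre mice, in which Cre is driven by a promoter of kidney tubule epithelium. The WT titles name the C57 strain and the KO titles name none, so that background, Cre and the floxed allele cannot be told apart from the knockout. Cells outside the tubules keep the gene under such a driver. Hspa8 encodes the constitutive chaperone HSC70, which the series as a whole studies for its effect on SREBP, a family of transcription factors of lipid synthesis, in diabetic kidney disease.

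Complex I, or NADH:ubiquinone oxidoreductase, is the entry point of electrons from NADH into the respiratory chain of mitochondria. It is L-shaped. A matrix arm holds the N module, which oxidises NADH, and the Q module, which passes electrons along iron-sulfur clusters to ubiquinone, and a membrane arm pumps protons. Proximal tubules and thick ascending limbs of the kidney are dense in mitochondria because salt and solute reabsorption consume much ATP. The hydrophobic core of the membrane arm is encoded by mitochondrial DNA, and those transcripts are not analysed here. Nuclear genes encode the remaining core subunits, the accessory subunits and the assembly factors, which help build the complex and leave it.

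Regulators that textbooks tie to nuclear respiratory genes include NRF1, GABPA, YY1 and the SP1 family, so the promoters of the genes were searched for their short motifs. RefSeq promoters of GRCm38.p6, from 250 bases before to 50 after the annotated start, were at hand for 42 of the 49 genes and for 9767 other tested genes. The YY1 motif AAGATGGCG was found, on either strand, in 6 of the 42 (14.3%), against 3.31% of the other tested genes and 1.49% of all 27025 promoters. All 6 matches were on the coding strand and began between 10 and 35 bases after the start used in the promoter table, which for Ndufs7 lies inside the RefSeq gene span and not at its outer end. The 6 sites are given as 30-base windows, with the motif in capitals, because the same letters recur within a short stretch after the start.
Ndufa9: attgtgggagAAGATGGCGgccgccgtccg
Ndufaf8: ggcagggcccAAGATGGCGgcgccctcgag
Ndufc1: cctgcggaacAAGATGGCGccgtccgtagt
Ndufs4: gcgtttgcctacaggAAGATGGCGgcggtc
Ndufs6: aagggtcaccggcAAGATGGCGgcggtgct
Ndufs7: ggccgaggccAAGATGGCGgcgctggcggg
The windows lie at chr6:126849096-126849125 (Ndufa9, minus strand), chr11:120098934-120098963 (Ndufaf8, plus), chr3:51408914-51408943 (Ndufc1, minus), chr13:114388045-114388074 (Ndufs4, minus), chr13:73328433-73328462 (Ndufs6, minus) and chr10:80249463-80249492 (Ndufs7, plus). The ATG inside the motif is also the triplet of a start codon, and whether it serves as one here was not examined.

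The other motifs were counted on both strands, and their positions were not compared. Nor were positions of the YY1 motif compared with those in genes outside the complex. The NRF1 core GCATGCGC was in 5 of the 42 promoters (11.9%; 5.26% of the other tested genes), namely those of Ndufa11, Ndufa6, Ndufa8, Ndufaf4 and Ndufaf5. The GABPA motif CCGGAAG was in 6 (14.3%; 18.6%) and the GC box GGGCGG of SP1 in 21 (50%; 63.7%). The site TCAAGGTCA of the receptor ERRalpha was in 0 (0.246%). These are letter matches, not binding sites. The 250 bases before the start are shown for Ndufa8 and Ndufs3, from the group of genes closest to the shared pattern across libraries described further on, and for Ndufv1, the gene with a promoter entry that was farthest from it. Capitals mark any of the 5 motifs on either strand, and in Ndufs3 a GC box and the GABPA motif overlap.
Ndufa8: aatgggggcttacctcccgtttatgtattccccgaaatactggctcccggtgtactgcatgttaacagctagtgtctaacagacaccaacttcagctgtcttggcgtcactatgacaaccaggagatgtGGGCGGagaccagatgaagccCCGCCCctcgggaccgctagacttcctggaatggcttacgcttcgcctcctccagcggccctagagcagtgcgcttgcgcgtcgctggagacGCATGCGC
Ndufs3: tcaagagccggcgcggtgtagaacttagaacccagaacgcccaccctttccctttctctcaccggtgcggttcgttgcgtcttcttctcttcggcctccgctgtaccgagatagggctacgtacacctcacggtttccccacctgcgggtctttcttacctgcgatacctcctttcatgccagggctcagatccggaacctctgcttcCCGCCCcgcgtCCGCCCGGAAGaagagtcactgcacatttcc
Ndufv1: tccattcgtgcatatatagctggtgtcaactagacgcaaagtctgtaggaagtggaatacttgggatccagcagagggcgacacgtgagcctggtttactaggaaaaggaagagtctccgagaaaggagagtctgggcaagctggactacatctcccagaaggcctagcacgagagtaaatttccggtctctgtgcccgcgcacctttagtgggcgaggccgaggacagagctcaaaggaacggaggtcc
Their positions are chr2:36049339-36049588, chr2:90904722-90904971 and chr19:4012756-4013005, all on the minus strand. The NRF1 core ends the Ndufa8 stretch, directly before the annotated start, and the Ndufv1 stretch holds none of the motifs.

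Before the genes themselves, the labels and tissue were checked. Hspa8 stood at 650, 699 and 781 FPKM in KO replicates 1, 2 and 3, against 1058, 1092 and 1318 FPKM in WT replicates 1, 2 and 3, so it was lower in every library labelled KO (log2 fold change -0.70, limma adjusted p = 0.866, exact two-sided permutation p = 0.1, the smallest that 3 against 3 can give). All 9 proximal tubule markers and all 7 of the thick limb and distal tubule were tested, none at 0. The proximal list summed to 34623 to 45973 FPKM in KO and 40945 to 46701 FPKM in WT kidneys. Most of that sum was 1 gene, Kap, which held 8.02% to 10.1% of the summed FPKM of a library. The sum therefore says little about the other proximal markers. Over the 9 markers the log2 fold change, KO minus WT, ran from -0.26 to 0.28, with 3 above 0 and 6 below. Summed markers of the thick limb and distal tubule, collecting duct, immune cells and podocytes overlapped between the genotypes, whereas those of endothelium, adipocytes and red cells did not. Single podocyte markers leaned to lower values in KO, all 5 with a log2 fold change below 0 (median -0.302). Of the tested immune markers 5 were below 0 and 1 above, where 64.9% of all tested genes were below 0. The 8 endothelial markers summed to 79.3 to 100 FPKM in KO and 102 to 140 FPKM in WT kidneys, and the 5 red cell genes to 69.4 to 545 FPKM in KO and 43.3 to 53.4 FPKM in WT kidneys. In bulk tissue, fewer cells of a type and less RNA per cell cannot be told apart. The depth behind each value is unknown, as a table of FPKM does not carry read totals.

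Complex I transcripts were abundant in both genotypes, and no gene of the complex passed the test between them. The 41 subunit symbols together summed to 6054 ± 686 FPKM in KO and 6147 ± 640 FPKM in WT kidneys (SD, n = 3 each), which was 1.42% to 1.63% of the summed FPKM of a KO library and 1.38% to 1.64% of a WT library. These sums include symbols that stand apart from the complex, described below. The largest of them was Ndufa4, with 704 ± 82.3 FPKM in KO and 717 ± 41.2 FPKM in WT kidneys. Of the 49 genes 0 passed with limma (adjusted p under 0.05), where 0% of all tested genes passed, and 0 had an unadjusted p under 0.05, against 5.17% of all tested genes. The groups overlapped for all 49, while over all tested genes 8.57% had every KO library below every WT library and 2.01% every KO library above, 10.6% in all. The log2 fold change, on the log2(FPKM + 1) scale and KO minus WT throughout, was below 0 for 27 of 41 subunit symbols (65.9%), close to the 64.9% over all tested genes. Its median was -0.016 for the subunit symbols and -0.0399 over all tested genes. The median of the subunit symbols had the opposite sign, 0.0262, 0.0375 and 0.00103, with library sums, library medians or quantiles equalised, and no direction is drawn from it. A p above the threshold does not show equal levels, and the 95% interval of the log2 fold change gives the sizes that the 6 libraries leave possible. It lay within 0.5 of 0, or 1.41-fold, for 42 of the 49 genes, the exceptions being Ndufa3, Ndufa4l2, Ndufa7, Ndufaf5, Ndufb4, Ndufb7 and Ndufs1.

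The 7 core subunits that nuclear DNA encodes carry the redox centres. Ndufv1 (chromosome 19, 4007499 to 4012755), whose product holds the flavin and binds NADH, had 176, 199 and 190 FPKM in KO and 202, 191 and 175 FPKM in WT kidneys. Ndufv2 (chromosome 17, 66078795 to 66101559), its iron-sulfur partner, had 91.4, 109 and 83.4 FPKM in KO and 86.1, 91.8 and 106 FPKM in WT kidneys. Ndufs1 (chromosome 1, 63143592 to 63176822), the largest subunit, which carries several iron-sulfur clusters, had 99.7, 87.2 and 114 FPKM in KO and 112, 97.9 and 70.6 FPKM in WT kidneys. For Ndufv1 and Ndufs1 WT replicate 3 was the lowest library, while for Ndufv2 KO replicate 3 was. Ndufs3 (chromosome 2, 90894627 to 90904721), a structural core subunit of the Q module, had 136, 157 and 127 FPKM in KO and 131, 140 and 161 FPKM in WT kidneys. WT replicate 3 was the highest library for Ndufs3 and KO replicate 3 the lowest, 1.27 times apart. Ndufs7 (chromosome 10, 80249105 to 80256794), which holds the last iron-sulfur cluster before ubiquinone, had 88.5, 102 and 84.3 FPKM in KO and 86, 103 and 110 FPKM in WT kidneys. Ndufs8 (chromosome 19, 3908863 to 3912774), another iron-sulfur subunit, had 113, 135 and 100 FPKM in KO and 107, 117 and 144 FPKM in WT kidneys. Within the core, Ndufs7 had the lowest log2 fold change (-0.12, 95% interval -0.40 to 0.16, limma adjusted p = 0.998) and Ndufs1 the highest (0.12, -0.28 to 0.52, limma adjusted p = 0.998).

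The accessory subunits of the N module surround the NADH-oxidising tip. Ndufa6, which anchors a copy of the acyl carrier protein, was the highest gene of the module with 217, 238 and 175 FPKM in KO and 181, 203 and 239 FPKM in WT kidneys. Ndufs4, whose loss in mice gives a model of Leigh syndrome, was the lowest with 55.7, 61.1 and 49.1 FPKM in KO and 52.6, 53.7 and 65 FPKM in WT kidneys. Both were highest in WT replicate 3, followed by KO replicate 2 and, at the low end, KO replicate 3. Ndufa12, which takes the place of the assembly factor Ndufaf2 late in assembly, had 70.5, 64.1 and 59.7 FPKM in KO and 58.5, 47 and 72 FPKM in WT kidneys. Its log2 fold change of 0.15 (-0.20 to 0.49, limma adjusted p = 0.998) was the highest of all subunit symbols, and WT libraries stood at both ends of its range. Ndufs6, a zinc-binding subunit, had 128, 148 and 122 FPKM in KO and 119, 117 and 136 FPKM in WT kidneys. Its log2 fold change was 0.10 (-0.15 to 0.34), or 0.02 without KO replicate 2 and 0.17 without WT replicate 3, and the groups overlapped. Ndufa7 averaged 121 ± 21.4 FPKM in KO and 134 ± 20.6 FPKM in WT, Ndufv3 119 ± 16.6 FPKM in KO and 119 ± 25.1 FPKM in WT, and Ndufa2 116 ± 16 FPKM in KO and 119 ± 21.5 FPKM in WT kidneys. The module's 10 genes split evenly, 5 above 0 and 5 below, with a median log2 fold change of 0.00216.

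The Q module has few accessory subunits. Ndufa5 averaged 155 ± 23.3 FPKM in KO and 155 ± 34 FPKM in WT kidneys, and Ndufa9, which binds a nicotinamide nucleotide near the membrane, 167 ± 16.9 FPKM in KO and 171 ± 10.5 FPKM in WT kidneys. Of its 6 genes 2 were above 0 and 4 below, with a median log2 fold change of -0.0353.

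The part of the membrane arm next to the matrix arm has 9 of the subunits. Ndufa10, which has a fold related to nucleoside kinases, was the highest with 174, 207 and 172 FPKM in KO and 173, 178 and 210 FPKM in WT kidneys. Ndufa11, a transmembrane subunit, was by far the lowest with 17.6, 19.7 and 14.5 FPKM in KO and 14.5, 16.5 and 21.8 FPKM in WT kidneys. Although the complex holds 1 copy of most subunits, the mean levels within the 4 modules thus ran from 17.4 FPKM for Ndufa11 to 308 FPKM for Ndufb8, a 17.7-fold range, which was 5.48-fold without Ndufa11. Such comparisons between genes rest on the transcript lengths used for the FPKM, which were not given, and do not measure protein. Ndufa3 had 171, 185 and 146 FPKM in KO and 121, 160 and 207 FPKM in WT kidneys, so that WT libraries held both its extremes. Its log2 fold change was 0.07 (-0.36 to 0.50). The X-linked Ndufa1 averaged 163 ± 25.8 FPKM in KO and 159 ± 33.5 FPKM in WT, and Ndufa8, an intermembrane-space subunit, 153 ± 23.6 FPKM in KO and 161 ± 27 FPKM in WT kidneys. Ndufa13, also known as GRIM-19, averaged 124 ± 17.4 FPKM in KO and 131 ± 27.9 FPKM in WT, and Ndufs5 123 ± 17.6 FPKM in KO and 122 ± 12.5 FPKM in WT kidneys. The partners Ndufc1 and Ndufc2 averaged 125 ± 12.6 and 177 ± 8.09 FPKM in KO, against 123 ± 20.2 and 184 ± 3.08 FPKM in WT kidneys. Of the 9 genes 3 were above 0 and 6 below, with a median log2 fold change of -0.016.

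The distal membrane arm, made up of the Ndufb subunits and the mitochondrial acyl carrier protein Ndufab1, held the most abundant transcripts. Ndufb8, often blotted as a marker of assembled complex I, had 277, 347 and 262 FPKM in KO and 290, 307 and 364 FPKM in WT kidneys. Ndufb9 followed at 294 ± 30.8 FPKM in KO and 289 ± 9.22 FPKM in WT kidneys. The lowest was Ndufb2 with 55.5, 64.4 and 47.4 FPKM in KO and 54.9, 57.8 and 65.3 FPKM in WT kidneys. For Ndufb8 and Ndufb2 KO replicate 3 was the lowest library and WT replicate 3 the highest. Ndufb4 averaged 218 ± 39.3 FPKM in KO and 237 ± 40.4 FPKM in WT, and Ndufb10 220 ± 32.1 FPKM in KO and 215 ± 21 FPKM in WT kidneys. The X-linked Ndufb11 averaged 146 ± 19.4 FPKM in KO and 149 ± 13.7 FPKM in WT, Ndufb7 138 ± 25.9 FPKM in KO and 145 ± 36.7 FPKM in WT, and Ndufab1 130 ± 11.5 FPKM in KO and 133 ± 7.97 FPKM in WT kidneys. Ndufb5 averaged 131 ± 12.5 FPKM in KO and 132 ± 5.83 FPKM in WT, Ndufb6 127 ± 17.5 FPKM in KO and 128 ± 17.6 FPKM in WT, and Ndufb3 98.3 ± 13.5 FPKM in KO and 97.7 ± 7.03 FPKM in WT kidneys. All these differences were smaller than the SD within at least 1 group. Ndufb1 had 102, 112 and 91.2 FPKM in KO and 79.6, 91.5 and 127 FPKM in WT kidneys, with WT libraries again at both ends and a log2 fold change of 0.05 (-0.34 to 0.44). Of the 12 genes 4 were above 0 and 8 below, with a median log2 fold change of -0.023.

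**Figure D1:**
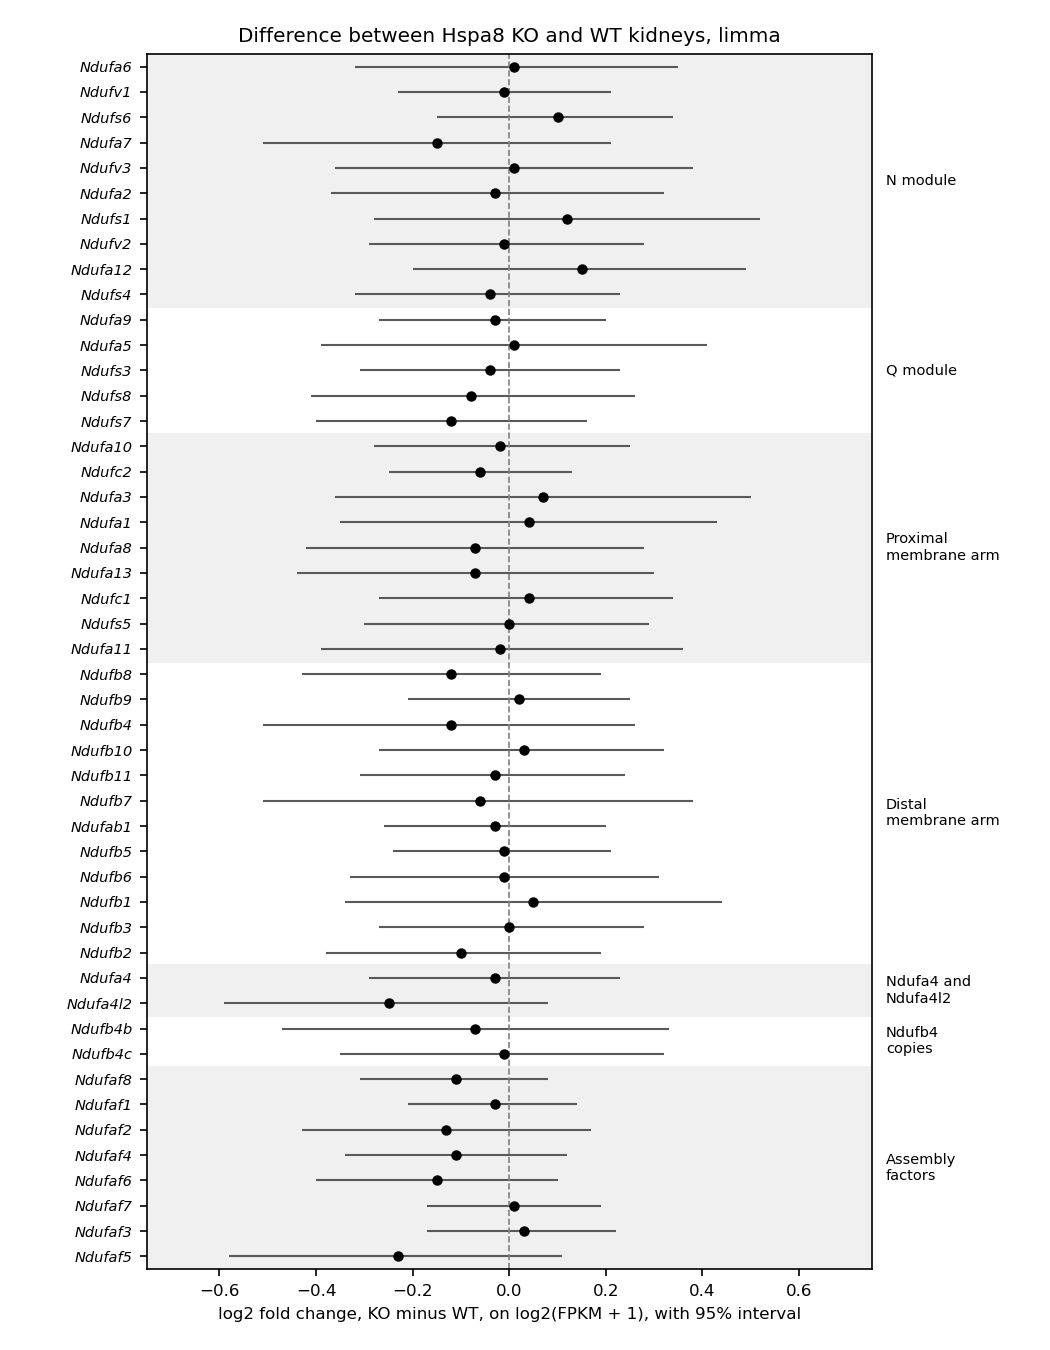
Log2 fold change of each gene reported by name, KO minus WT on log2(FPKM + 1), as a point with its 95% interval from limma. Every interval includes 0, and Ndufa4l2 (-0.25) and Ndufaf5 (-0.23) have the lowest values.

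Of the 41 symbols 4 stand apart from the modules. NDUFA4 was first described with complex I and is now placed in cytochrome c oxidase, complex IV. Ndufa4 was the most abundant of all 49 genes, at 682, 796 and 635 FPKM in KO and 672, 726 and 753 FPKM in WT kidneys. Its hypoxia-inducible relative Ndufa4l2 was the least abundant, at 2.27, 2.6 and 2.14 FPKM in KO and 2.43, 2.66 and 3.95 FPKM in WT kidneys. Ndufa4l2 had the lowest log2 fold change of the 49 genes (-0.25, -0.59 to 0.08, limma adjusted p = 0.989) and the smallest unadjusted p (0.123), with WT replicate 3 well above the other 5 libraries. Without WT replicate 3 the log2 fold change was -0.09. An exact permutation test gave it p = 0.2, where 3 against 3 cannot go below 0.1. All 8 endothelial markers were below 0 too (64.9% of all tested genes were), none of them at 0 FPKM in all libraries. Of the 8, 5 had every KO library below every WT library (8.57% of all tested genes), and their mean deviation was -0.16, -0.04 and -0.33 in KO and 0.01, 0.11 and 0.41 in WT replicates 1, 2 and 3. In WT replicate 3 the mean deviation was also above 0 for podocytes (0.39), immune cells (0.27) and adipocytes (1.15). There it was 0.01 for the thick limb and distal tubule, -0.02 for the proximal tubule, -0.08 for the collecting duct and -1.01 for red cells. These means cover tested markers only, which were 6 of 8 for immune cells, 2 of 4 for adipocytes and 4 of 5 for red cells. The part of any cell type in the Ndufa4l2 value was not tested. The Ndufa4l2 gene overlaps Shmt2 (93.7 FPKM) by 32 bases, so some of its reads may belong to that neighbour. Ndufb4b and Ndufb4c carry the name of Ndufb4, and GENCODE M21 lists Ndufb4c as a processed pseudogene. They lie within the spans of other genes, Ndufb4b in that of Dock8 and Ndufb4c in that of Mroh5. Ndufb4b averaged 27.9 ± 5.04 FPKM in KO and 29.4 ± 5.94 FPKM in WT, and Ndufb4c 26.1 ± 3.13 FPKM in KO and 26.5 ± 4.91 FPKM in WT kidneys. All 390 bases of Ndufb4c are identical to Ndufb4 (100%), so reads of Ndufb4 can be counted to it and both values are uncertain. No Ndufb4b transcript was matched in GENCODE.

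The assembly factors were far less abundant than the subunits, and none was called. Their levels summed to 126 ± 6.96 FPKM in KO and 134 ± 5.81 FPKM in WT kidneys (SD, n = 3 each), and their median log2 fold change was -0.11, with 6 of 8 below 0 (75%; 64.9% of all tested genes). The median was -0.0677, -0.0563 and -0.0784 with library sums, library medians or quantiles equalised, -0.0674 without WT replicate 1 and -0.0661 without WT replicate 3. Ndufaf1, a member of the assembly complex that builds the early membrane arm, had 22.4, 23 and 22 FPKM in KO and 23.9, 22.6 and 22.6 FPKM in WT kidneys. Ndufaf2, the counterpart of Ndufa12, had 17.6, 21.5 and 17.3 FPKM in KO and 17.7, 20.7 and 23.8 FPKM in WT kidneys. The groups overlapped for both. Ndufaf3 and Ndufaf4 act together on the Q module. Ndufaf3 had 10.5, 11 and 10.2 FPKM in KO and 9.72, 10.2 and 11.2 FPKM in WT kidneys, with a log2 fold change of 0.03 (-0.17 to 0.22). Ndufaf4 had 16.3, 18.3 and 16.3 FPKM in KO and 20, 16.3 and 18.9 FPKM in WT kidneys, with -0.11 (-0.34 to 0.12). Ndufaf5, which hydroxylates an arginine of NDUFS7, was the least abundant factor at 6.03, 4.19 and 4.78 FPKM in KO and 5.31, 5.47 and 7.4 FPKM in WT kidneys. Its log2 fold change was -0.23 (-0.58 to 0.11, limma adjusted p = 0.996), and KO replicate 1 lay above a pair of WT libraries. It was -0.35 without KO replicate 1, -0.14 without KO replicate 2, -0.10 without WT replicate 3, and -0.00441 without KO replicate 2 and WT replicate 3 together. Ndufaf8, which stabilises Ndufaf5, was the most abundant factor at 23.7, 26.1 and 24.2 FPKM in KO and 27.8, 25.2 and 27.3 FPKM in WT kidneys, with -0.11 (-0.31 to 0.08). Only KO replicate 2 reached into the WT range. Ndufaf6, needed early in assembly, had 12.3, 15.2 and 12 FPKM in KO and 14.5, 13.8 and 15.9 FPKM in WT kidneys, with -0.15 (-0.40 to 0.10). Ndufaf7, a methyltransferase, had 13.6, 14.2 and 14 FPKM in KO and 13.8, 14.5 and 13.1 FPKM in WT kidneys. KO replicate 2 was again inside the WT range for Ndufaf6, and the groups intermingled for Ndufaf7.

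Complex I assembly also draws on factors with other symbols, and the wider respiratory chain gives a frame. Of 11 tested further assembly factors 0 passed, with 4 above 0, 7 below and a median of -0.0112 for the log2 fold change. The lowest p in that list belonged to Tmem186 (5.72 ± 0.627 FPKM in KO and 6.8 ± 0.487 FPKM in WT kidneys) and Dmac1 (22.6 ± 0.4 FPKM in KO and 24 ± 2.09 FPKM in WT kidneys). Of 37 tested nuclear subunits of complexes II to V 0 passed, with 14 above 0 and 23 below and a median of -0.0306. There the ATP synthase genes Atp5d (275 ± 32.4 FPKM in KO and 342 ± 72.4 FPKM in WT kidneys) and Atp5k (158 ± 12.6 FPKM in KO and 139 ± 27 FPKM in WT kidneys) had the smallest p. Of 13 genes of iron-sulfur cluster assembly, which supply the clusters of the matrix arm, 0 passed, with a median of -0.0454, and Bola3 had the smallest p (20.1 ± 0.867 FPKM in KO and 18.9 ± 1.44 FPKM in WT kidneys). Of 10 genes taken as a gauge of mitochondrial content 0 passed, with 7 above 0 and a median of 0.0432, the smallest p being those of Timm23 (52 ± 12.2 FPKM in KO and 42.2 ± 3.2 FPKM in WT kidneys) and the outer-membrane channel Vdac1 (364 ± 13.2 FPKM in KO and 341 ± 26.6 FPKM in WT kidneys). Of 11 regulators of mitochondrial biogenesis 0 passed, with a median of -0.0473. In that list the groups did not overlap for 2 genes, both lower in KO (8.57% of tested genes): Gabpb1, a partner of GABPA, with 3.82, 4.31 and 3.69 FPKM in KO and 5.4, 4.44 and 5.22 FPKM in WT kidneys, and Pprc1, a relative of PGC-1alpha, with 2.63, 2.36 and 2.97 FPKM in KO and 3.1, 3.01 and 3.35 FPKM in WT kidneys. Their limma adjusted p were 0.941 and 0.973.

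Most subunits shared their high and low libraries, and these were not split by genotype. WT replicate 3 was the highest library for 28 of the 41 subunit symbols and KO replicate 2 for 10, whereas these libraries were highest for 30.2% and 18.8% of all tested genes. KO replicate 3 was the lowest for 28 and WT replicate 1 for 8, against 33.4% and 8.04% of all tested genes. The mean deviation of the subunit symbols from their mean over the 6 libraries, on the log2 scale, was -0.02, 0.15 and -0.17 in KO replicates 1, 2 and 3 and -0.13, -0.03 and 0.20 in WT replicates 1, 2 and 3. Each genotype thus held a high, a middle and a low library. As a measure of likeness, Pearson's r over the 6 libraries between a gene and the mean of the other subunit symbols was at least 0.9 for 30 of 41 (73.2%), against 7.22% of the 12125 tested genes outside the complex. It is given as a description, since all values share the same 6 libraries. Some other mitochondrial lists shared this run of libraries and some did not. For the 37 subunits of complexes II to V the mean deviation was -0.05, 0.14 and -0.14 in KO and -0.08, -0.01 and 0.13 in WT replicates 1, 2 and 3. The 13 iron-sulfur assembly genes had -0.05, 0.11 and -0.09 in KO and -0.01, -0.01 and 0.05 in WT. In contrast, the 10 genes of mitochondrial content had 0.05, 0.03 and 0.01 in KO and 0.03, -0.02 and -0.10 in WT. The 11 further assembly factors had -0.03, 0.03 and -0.04 in KO and 0.07, 0.02 and -0.04 in WT. The 11 biogenesis regulators had -0.06, -0.01 and -0.02 in KO and 0.06, 0.02 and 0 in WT. By r, Ndufa8 (0.99), Ndufs3 (0.99) and Ndufs8 (0.99) were among the subunits closest to the pattern. Outside the complex the most alike were Fam98c (0.999), Atp5md (0.996), an ATP synthase subunit, Acot13 (0.995), Hmg20b (0.995) and Rps27l (0.995).

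**Figure D2:**
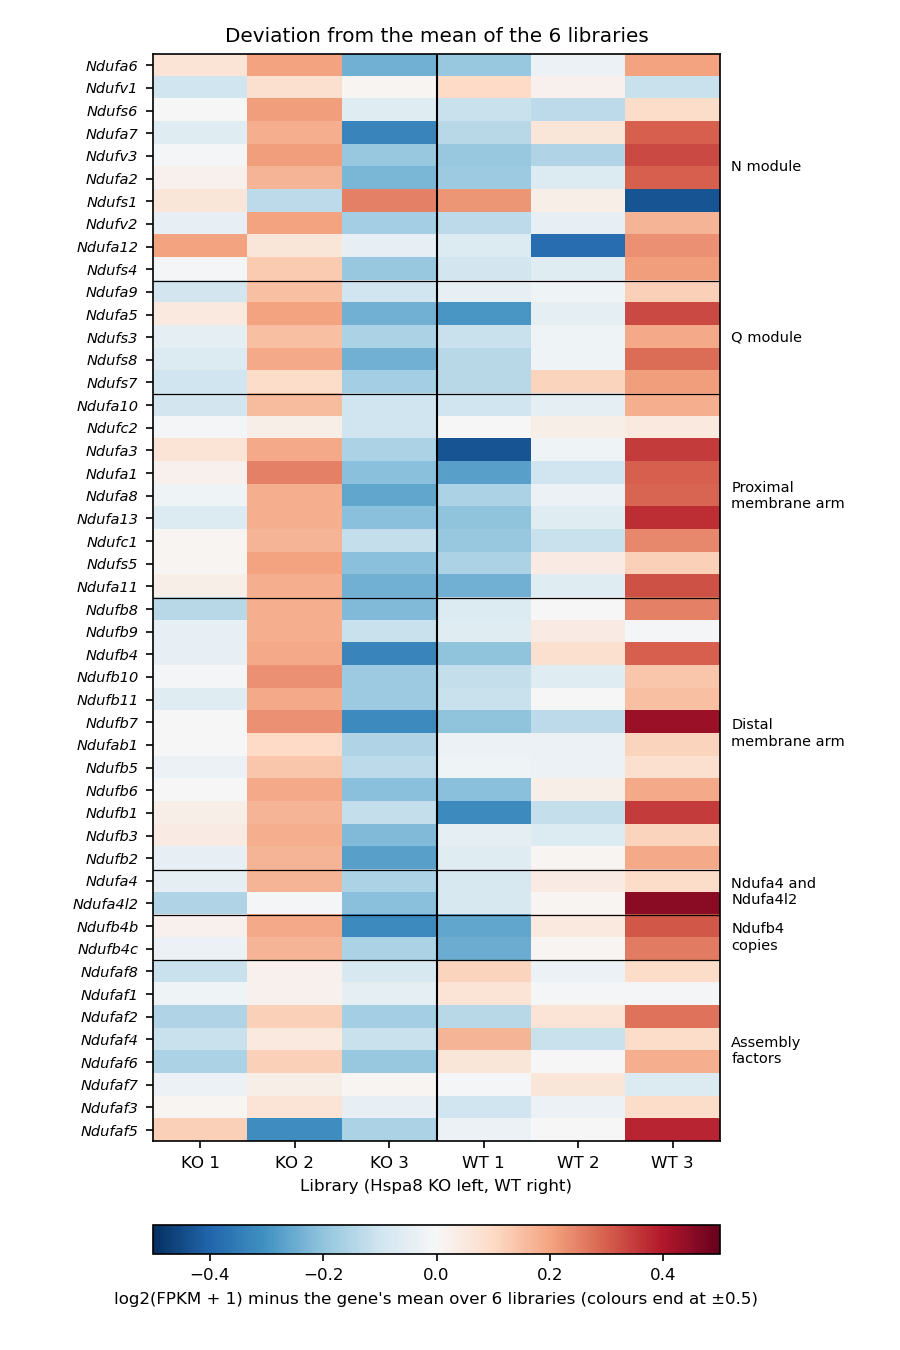
Deviation of each gene reported by name from its own mean over the 6 libraries, as log2(FPKM + 1), with KO libraries left of the line and WT libraries right of it. Most subunits are high in KO replicate 2 and WT replicate 3 and low in KO replicate 3 and WT replicate 1, with Ndufs1 the reverse.

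Several genes departed from the shared pattern, most of all Ndufs1. Its r with the other subunits was -0.96, and it was highest in KO replicate 3 and lowest in WT replicate 3. Set against the median of the other subunit symbols in the same library, the Ndufs1 level was 77.7%, 60.2% and 98.6% in KO replicates 1, 2 and 3 and 93.5%, 76.2% and 46.6% in WT replicates 1, 2 and 3. The ranges of this ratio overlapped between the genotypes. Ndufv1, also a core subunit of the matrix arm, had an r of -0.36, and the accessory subunit Ndufa12 had 0.45. Most assembly factors were far from the pattern too, with -0.31 for Ndufaf7, 0.02 for Ndufaf1, 0.31 for Ndufaf4 and Ndufaf5, and 0.35 for Ndufaf8. Ndufaf6 had 0.74, and Ndufaf2 (0.90) and Ndufaf3 (0.92) went with the subunits.

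Transcript length moved with this pattern. A GENCODE M21 length was matched for 47 of the 49 genes and for 11375 of all tested genes (93.4%). Complex I genes with transcripts under 1000 bases, 27 of them, had median deviations of -0.01, 0.18 and -0.21 in KO replicates 1, 2 and 3 and -0.14, -0.02 and 0.25 in WT replicates 1, 2 and 3. The 20 longer ones had -0.04, 0.11 and -0.12 in KO and -0.04, -0.03 and 0.14 in WT replicates 1, 2 and 3. The 14 subunit symbols among the longer ones, without the assembly factors, had -0.04, 0.14 and -0.14 in KO and -0.06, -0.03 and 0.18 in WT replicates 1, 2 and 3, nearer to the short genes. Among genes outside the complex the 737 short transcripts had -0.04, 0.13 and -0.18 in KO and -0.08, -0.02 and 0.20 in WT, and the 10591 longer ones -0.03, 0.01 and -0.04 in KO and 0.05, 0 and 0.01 in WT replicates 1, 2 and 3. Short transcripts outside the complex thus had the same high and low libraries as complex I genes. Across the 47 genes the Pearson correlation of the deviation with log2 length was -0.13, -0.41 and 0.46 in KO and 0.62, -0.07 and -0.43 in WT replicates 1, 2 and 3, and across the 11375 genes it was 0.09, -0.37 and 0.31 in KO and 0.32, 0.08 and -0.31 in WT. These are correlations across genes, which share a library and are not independent. The part that length has in the pattern was not tested. The median log2 fold change was -0.0258 for the short and -0.0251 for the longer complex I genes, so the split by length made little difference between the genotypes.

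**Figure D3:**
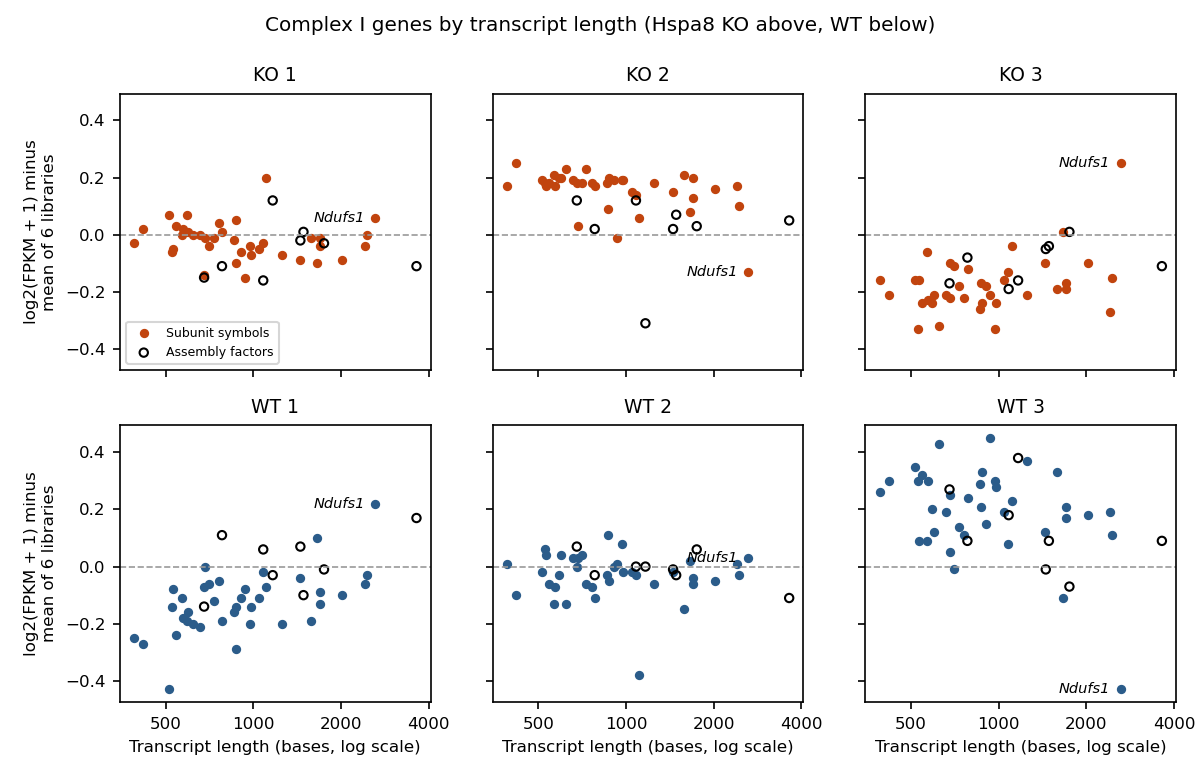
Deviation of each complex I gene reported by name from its mean over the 6 libraries against transcript length on a log axis, 1 panel per library, KO above and WT below, with assembly factors as open circles. Short transcripts are high in KO replicate 2 and WT replicate 3 and low in KO replicate 3 and WT replicate 1, and Ndufs1, at 2625.5 bases among the longest, lies on the opposite side in these 4 libraries. Ndufab1 (2447.5 bases) and Ndufb2 (2413 bases) lie on the side of the short transcripts.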

How the data were processed

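Libraries were made from total RNA of kidney with a SMARTer mRNA kit, per the labels' protocols. The deposited table holds FPKM, which the authors had computed for each gene in each library, so values are already relative to transcript length and mapped total. The genome build is GRCm38, also written mm10, per the submitters' processing notes. The aligner, the quantifier and the annotation were not given in the sources used here. Columns with the letters A8 were assigned to the Hspa8 KO titles of the same number, as A8 ends HSPA8 and stands in no WT title. No 2 libraries shared an identical value above 0 for any gene. No single ratio between libraries (bins of 0.005 on the log2 scale) held more than 0.625% of genes under 0.1 FPKM, so whole reads were not recovered.

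Genes with a mean of at least 1 FPKM entered a limma fit (version 3.58.1, R 4.3.3) of log2(FPKM + 1) on genotype alone, with a variance trend, two-sided tests, Benjamini-Hochberg adjustment over 12174 genes and a threshold of 0.05. Changes of low genes are understated on that scale. FPKM themselves are given as mean and SD. The exact permutation test is two-sided over 20 splits of the mean log2 value. Nothing says that the samples came from separate animals, and p-values then measure only how far these samples vary, possibly for technical reasons. All 49 symbols matched RefSeq GRCm38.p6, the source of coordinates (1-based) and promoters (first listed start of a gene). Length is the median of a gene's principal GENCODE M21 transcripts. Genes were described by module, and values per sample were given for core subunits, assembly factors, the highest and lowest gene of each module and the 6 smallest p in each direction. Of each other list the 2 smallest p are named. Some genes to which these rules apply are not reported here by name, but counts, sums and medians include them. Members, lists and tests were chosen with earlier results of these data known.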

Additional observations from a re-analysis of the deposited data

How the results depend on the processing

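Under all 16 alternatives (pseudocounts of 0.1 and 0.5, no filter and a mean of at least 5 FPKM, 3 other scalings, robust variance, a replicate block, each library left out, and KO replicate 2 with WT replicate 3 left out) limma called 0 complex I genes. By the same test 1 gene of the 49 each was below an unadjusted 0.05 without KO replicate 1 (Ndufaf5), KO replicate 2 (Ndufaf6), WT replicate 1 (Ndufa4l2) and WT replicate 3 (Ndufa12), and 0 in the other alternatives. In the main fit 5.17% of all tested genes were below it, so these single genes are not read as differences. Over all genes limma called 5 without KO replicate 2, and 5 when WT replicate 3 was left out with it. The median log2 fold change of the subunit symbols ran from -0.103 without KO replicate 2 to 0.0606 without WT replicate 3, and that of the assembly factors from -0.144 without KO replicate 2 to -0.0563 with library medians equalised. Those of the subunit symbols were also 0.0484 without KO replicate 3 and -0.0914 without WT replicate 1, so single libraries set the sign, while those of the assembly factors were below 0 in all 16. Over all tested genes the median was -0.0399 in the main fit, -0.065 without KO replicate 2 and 0.00957 with library medians equalised. The 11 further assembly factors had -0.0112 in the main fit, and no direction is drawn from the 8 factors. Of the 12 genes with the smallest p in each direction, 5 had a change of sign when a library was left out, none of them called. Ndufa12 ran from -0.01 without WT replicate 2 to 0.30 without WT replicate 3. Without WT replicate 1, KO replicate 2 and WT replicate 3 in that order, Ndufa3 had -0.13, -0.01 and 0.26, Ndufaf3 -0.01, -0.00069 and 0.08, and Ndufb1 -0.09, -0.02 and 0.24. Ndufs1 ran from -0.07 without WT replicate 3 to 0.26 without WT replicate 1. The other 7 kept their sign, from -0.35 to -0.09 for Ndufa4l2 (15 alternatives), -0.35 to -0.00441 for Ndufaf5, -0.25 to -0.10 for Ndufaf6, -0.15 to -0.06 for Ndufaf8, -0.19 to -0.05 for Ndufaf4, -0.22 to -0.04 for Ndufs7 and 0.02 to 0.17 for Ndufs6. Nothing in the labels pairs the replicate numbers. The correlation of deviations between same-numbered KO and WT libraries was 0.307, -0.215 and -0.321, against 0.55 between KO replicate 2 and WT replicate 3. Because the deviations are centred within groups of 3 libraries, these values cannot exclude a pairing. With the replicate block 0 complex I genes were called and the medians were -0.016 and -0.11. Unknown depth limits the low genes most, Ndufa4l2 and Ndufaf5.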
